A study of Mus musculus with 14 samples.

Results

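Stem cells (SCs) of the pyloric stomach and of the proximal small intestine were compared after both had been grown as organoids and sorted for the same marker. The comparison sets control Sto SCs (2 arrays) against control SI SCs (3 arrays), 5 of the 14 arrays of the series, grouped by the name each array carries. Both groups have the genotype Cdx2-/fl / Lgr5-EGFP and saw no 4-hydroxytamoxifen, so stomach and intestinal cells alike carried 1 Cdx2 allele that was already null and 1 floxed allele that was still intact. The EGFP and a tamoxifen-dependent Cre recombinase are expressed from the Lgr5 locus, so EGFP brightness follows Lgr5. The mice were adults of both sexes on a mixed C57Bl6j/CBA background, and how many animals stand behind the arrays is not stated. Crypts and glands gave organoids, single EGFP-bright cells from these were expanded as clones, and the bright cells of the clones were sorted again for RNA. The study's description has the clones growing in Sto medium, that is intestinal medium (EGF, Noggin and R-spondin) with Wnt3a-conditioned medium, Fgf10 and gastrin added. Where its text counts the samples of each kind of SC it gives 2, so how the third control SI SC array was grown is not covered there.

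Lgr5 marks the cycling stem cells at the base of intestinal crypts and of pyloric glands, and encodes a receptor for R-spondins, which strengthen Wnt signalling. Crypt stem cells give rise to absorptive enterocytes, mucus-secreting goblet cells, antimicrobial Paneth cells, hormone-secreting cells and tuft cells. Pyloric stem cells give rise to surface pit cells, mucous gland cells and hormone-secreting cells, while the acid-secreting parietal and pepsinogen-secreting chief cells belong mainly to the gastric corpus. Cdx2 and Cdx1 are homeodomain factors that specify the intestine, and Sox2 is a factor of the foregut and stomach.

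Levels are log2 expression values of Affymetrix Mouse Gene ST 1.1 arrays, so a difference of 1 is 2-fold, and array medians over all probe sets lay between 4.72 and 5.05. Differences are control Sto SCs minus control SI SCs, and errors are standard errors (SE) from limma. Each group is a population of cells, so fewer cells of a kind and less RNA per cell cannot be told apart. Nothing states that arrays of a group came from separate animals, so p-values measure the spread between these samples only. Both control Sto SC arrays carried female transcripts (Xist high, Y-linked genes low), as did control SI SCs 2, while control SI SCs 1 and 3 carried male ones. The values of control SI SCs 3 had been exported at another precision than those of the other 4 arrays.

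The sorted cells were epithelial in both groups. Epcam, an epithelial adhesion molecule, was at 11.44 and 11.66 in control Sto SCs and at 11.58, 11.53 and 11.24 in control SI SCs, and the 6 epithelial markers averaged 11.5 to 11.8 on every array. The 15 mesenchymal markers averaged 4.16 to 4.31, the 13 immune markers 4.40 to 4.68 and the 8 endothelial markers 3.71 to 3.96, all under the array medians. Among the immune markers, Ptprc (CD45) was at 4.01 and 4.10 in control Sto SCs and at 3.82, 3.75 and 4.33 in control SI SCs. Lgr5 itself was at 10.77 and 11.14 in control Sto SCs, against 11.56, 11.30 and 10.79 in control SI SCs. The groups overlapped on it, with a difference of -0.26 ± 0.28 (adjusted p = 0.773, limma).

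Of 18820 genes, 366 were higher in control Sto SCs (1.94%) and 172 were lower (0.914%), 538 in all (2.86%). Called genes are those that differed at least 2-fold with an adjusted p under 0.05. Each count of list members below is to be read beside the shares of 1.94% higher and 0.914% lower over all genes. The arrays of both groups did not overlap for any of the 538, as was so for 30.6% of all genes (19.9% with control Sto SCs above and 10.6% with them below). Among genes called higher the median difference was 1.92 on the log2 scale, and among those called lower it was -2.25. Of the genes called higher, 169 differed at least 4-fold and 21 at least 16-fold, and of those called lower, 98 and 26 did. Many called genes were near the floor of the arrays on one side. Of the 172 genes called lower, 94 had a control Sto SC mean under 4.72, the lowest array median, and of the 366 called higher, 92 had a control SI SC mean under it. The count rested on all of the arrays, since dropping control Sto SCs 1 or 2 left 160 and 178, and dropping control SI SCs 1, 2 or 3 left 277, 445 and 307. Each of these but the 445 is a change of over 1.5 times, whose cause was not tested. A term for the sex of the array left 262 calls (1.39%, 110 higher and 152 lower). Control SI SCs 2 is the only female control SI SC array. With this term the difference is therefore that of both control Sto SC arrays from this 1 array, here and below. The drop cannot be read as an effect of sex. All 366 and all 172 genes kept their sign, which was fixed beforehand because their arrays do not overlap. In the plot of difference against p, the genes called lower reach further from 0 and those called higher are more numerous.

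**Figure D1:**
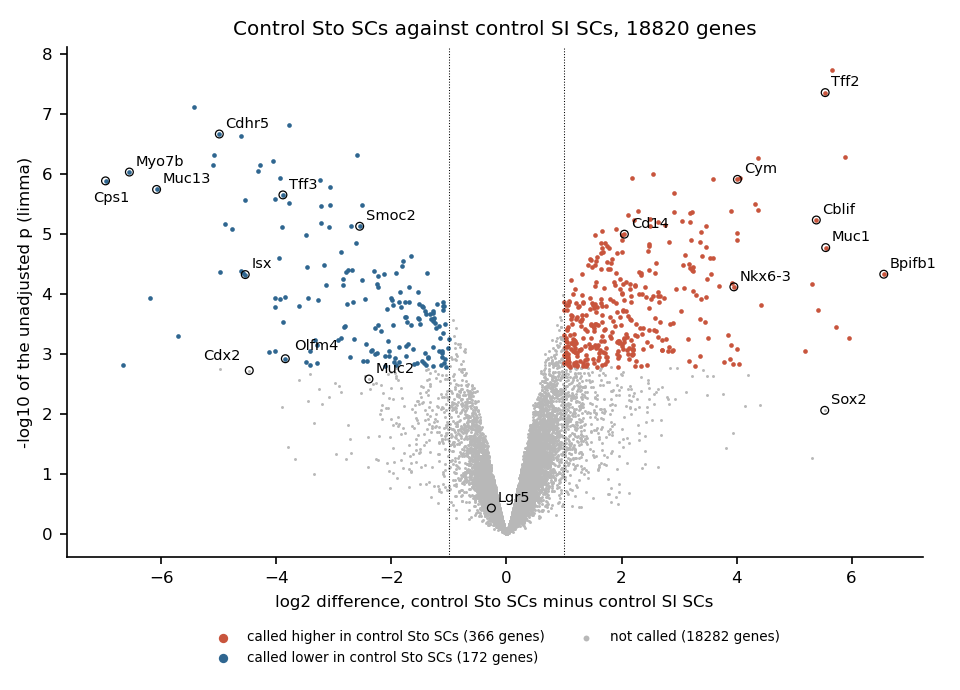
Log2 difference, control Sto SCs (2 arrays) minus control SI SCs (3 arrays), on the x axis against -log10 of the unadjusted limma p on the y axis, 1 point per gene. Of 18820 genes, 366 were called higher (red) and 172 lower (blue) in control Sto SCs, dotted lines mark 2-fold, and Cdx2, Sox2, Muc2 and Lgr5 are labelled although they were not called.

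Transcription factors of the gut were the first group examined. Of 25 measured factors with intestinal roles, 6 were lower in control Sto SCs and none was higher, beside 0.914% of all genes lower, with a list median of -0.53, against 0.03 over all genes. Isx, an intestine-restricted homeodomain factor that represses vitamin A uptake genes, was at 3.61 and 3.77 in control Sto SCs, against 8.03, 9.33 and 7.33 in control SI SCs. The Sto values lay near the bottom of the array's range, and the difference was -4.54 ± 0.51 (adjusted p = 0.0067, limma). Cdx1 was at 4.88 and 4.84 in control Sto SCs and at 7.33, 7.90 and 6.88 in control SI SCs (-2.50 ± 0.29, adjusted p = 0.0078). Maf, a leucine zipper factor, differed by -2.70 ± 0.30. The remaining called members were 3 nuclear receptors, with smaller differences. Hnf4g, the paralog of Hnf4a that is enriched in the intestine, was at 6.81 and 6.54 in control Sto SCs and at 8.15, 8.05 and 7.97 in control SI SCs (-1.38 ± 0.15, adjusted p = 0.00664). Nr5a2, a receptor active in crypts, differed by -1.70 ± 0.21, and Nr1i2, the xenobiotic sensor PXR, by -2.11 ± 0.42 (adjusted p = 0.00911 and 0.0482). Hnf4a was not called, at 10.42 and 10.43 in control Sto SCs and 11.31, 11.60 and 10.93 in control SI SCs (adjusted p = 0.112). Without either control Sto SC array only 1 factor of this list was lower, and without any control SI SC array 5 were.

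Cdx2 and Sox2 had some of the widest gaps between the groups without being called. Cdx2 was at 5.08 and 4.67 in control Sto SCs, against 9.04, 10.05 and 8.94 in control SI SCs, and Sox2 was at 9.40 and 10.07 in control Sto SCs, against 3.83, 4.85 and 3.93 in control SI SCs. No array of one group came within 3 log2 units of the other. The adjusted p was 0.0542 for Cdx2 (-4.47 ± 0.93) and 0.125 for Sox2 (5.53 ± 1.54). The SE is shared with the 2 arrays of Cdx2null SI SCs, which entered the estimate of the spread only and lay far apart on both genes, at 8.41 and 4.88 for Cdx2 and at 3.68 and 9.83 for Sox2. On both genes Cdx2null SI SCs 1 lay with control SI SCs, against its label, although its Cps1 level (4.11) lay with control Sto SCs (4.16 and 4.05) and not with control SI SCs (10.84, 12.05 and 10.34). According to the study's methods, the Cdx2 probe sets span all exons of the gene and so include the part that Cdx2null SI SCs keep. Whether this accounts for the Cdx2 level of Cdx2null SI SCs 1 was not tested. Fitted on the 5 control arrays alone, the adjusted p was 0.00304 for Cdx2 and 0.00177 for Sox2. Among the genes named here, the same 5-array fit added Tbx3, Apob, Aqp1 and Mgam as lower in control Sto SCs. It added Scnn1a, Slc9a3 and Notum as higher there. It lost Olfm4 (adjusted p = 0.0605), Muc3, Zg16, Mep1b, Foxa2, Ern2, Anxa1, Lamb2, St3gal5, Abcg2, Baiap2l2, Fam20c, Tent5c and Mir215. Across all genes, 487 were called in both fits, 51 with 7 arrays only and 133 with 5 only.

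Of 24 measured factors with gastric or foregut roles, 6 were higher in control Sto SCs and none was lower, with a list median of 1.15. Nkx6-3, a homeodomain factor of the pyloric antrum, was at 9.11 and 8.09 in control Sto SCs, against 4.58, 5.44 and 3.92 in control SI SCs. The lowest Sto array lay well above the highest SI array, and the difference was 3.95 ± 0.48 (adjusted p = 0.00911). Meis2, a homeodomain cofactor, was at 10.44 and 9.81 in control Sto SCs and at 7.003, 6.66 and 5.02 in control SI SCs (3.90 ± 0.68, adjusted p = 0.0327). Bhlha15 (Mist1), which drives secretory cell maturation and marks chief cells, was at 8.72 and 7.88 in control Sto SCs and at 5.20, 5.34 and 5.13 in control SI SCs (3.08 ± 0.33, adjusted p = 0.00602). Sox21, Spdef, a factor of mucous cell differentiation, and the forkhead factor Foxa2 were higher by 2.19 ± 0.39, 1.46 ± 0.19 and 1.03 ± 0.20. Meis1, outside the list, was also higher, by 3.50. Of this list 1 factor was higher without control Sto SCs 1, 2 without control Sto SCs 2, 3 without any control SI SC array and 1 with a term for sex. Pax9 and Irx3 were split within control Sto SCs, at 6.11 and 8.35 and at 4.95 and 7.74, and neither was called. Tbx3 had the lowest difference of the list, at -3.27, and was not called with 7 arrays. It was called lower on the 5 control arrays alone (adjusted p = 0.00809, limma), and after median centring 1 member of the list was lower. No Hox gene was called among 36 measured, and their median difference was -0.12.

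Of 25 measured genes of the crypt stem cell signature, 6 were lower in control Sto SCs and none was higher, with a list median of -0.27. Without control Sto SCs 1 or 2 only 1 was lower (Smoc2 each time), and leaving out control SI SCs 1, 2 or 3 gave 3, 4 and 5. Olfm4, a secreted glycoprotein of crypt base cells, was at 3.62 and 3.96 in control Sto SCs, against 7.35, 9.23 and 6.33 in control SI SCs. The SI arrays spread over nearly 3 log2 units but stayed clear of the Sto arrays, with a difference of -3.85 ± 0.73 (adjusted p = 0.043). Smoc2, a matricellular protein, was at 7.65 and 7.94 in control Sto SCs and at 10.26, 10.72 and 10.06 in control SI SCs (-2.55 ± 0.22, adjusted p = 0.00264), so it was still well above the array median in the stomach cells. Msi1, an RNA-binding protein of stem and progenitor cells, was at 5.64 and 5.78 in control Sto SCs and at 8.60, 8.63 and 7.90 in control SI SCs (-2.67 ± 0.35). Dach1, Rgmb, a BMP co-receptor, and Cdca7 differed by -2.30 ± 0.25, -1.87 ± 0.33 and -1.27 ± 0.23. The other 19 members were not called. Ascl2, a Wnt-driven factor of the crypt base, was at 9.06 and 9.38 in control Sto SCs and at 9.73, 9.67 and 9.09 in control SI SCs, Axin2 at 7.89 and 8.51 against 9.18, 9.58 and 8.50, and Sox9 at 11.26 and 11.20 against 11.22, 11.03 and 10.73. Each of these 3 genes overlapped between the groups, with adjusted p of 0.689, 0.39 and 0.689. Notum, a secreted Wnt inhibitor, was at 6.17 and 7.30 in control Sto SCs and at 4.48, 4.80 and 3.98 in control SI SCs, and was not called with 7 arrays (adjusted p = 0.227).

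**Figure D2:**
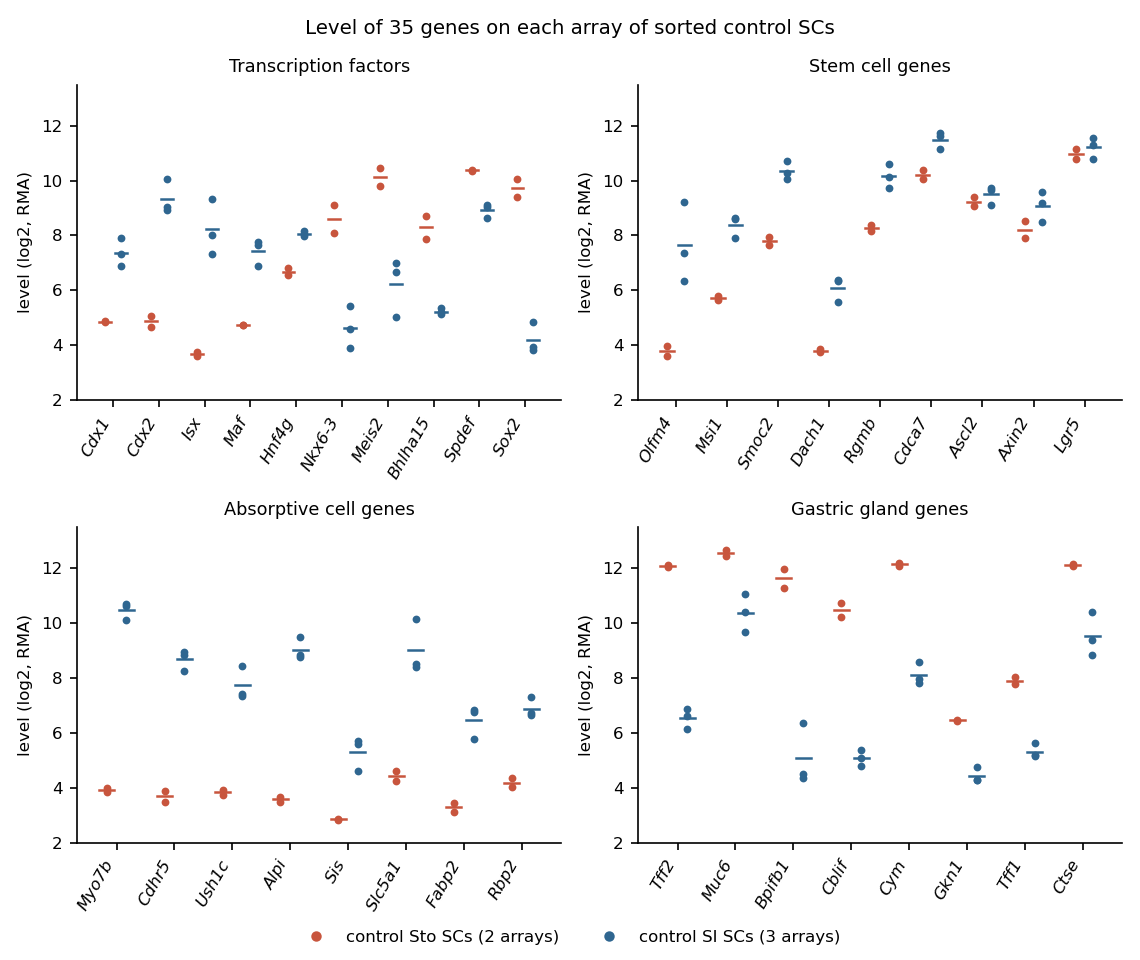
Log2 level (y axis) of 35 genes on each of the 2 control Sto SC arrays (red, left) and the 3 control SI SC arrays (blue, right), 1 point per array with a line at the group mean, in 4 panels for transcription factors, stem cell genes, absorptive cell genes and gastric gland genes. Ascl2, Axin2 and Lgr5 overlap between the groups, and every other gene shown is separated.

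Genes of the absorptive cell surface were lower in control Sto SCs. Of 23 measured brush border genes, 9 were lower and 1 was higher, with a list median of -0.91. The 9 became 5 without control Sto SCs 1, control Sto SCs 2 or control SI SCs 1, and 7 when control SI SCs 2 or 3 was left out. Among these were the parts of the complex that ties neighbouring microvilli to each other at their tips, namely the protocadherins Cdhr2 and Cdhr5, the scaffold Ush1c and the motor Myo7b. Cdhr5 was at 3.87 and 3.50 in control Sto SCs, against 8.86, 8.94 and 8.24 in control SI SCs (-4.99 ± 0.25, adjusted p = 0.000749). Ush1c was at 3.75 and 3.92 in control Sto SCs, against 7.36, 8.44 and 7.40 in control SI SCs (-3.90 ± 0.34, adjusted p = 0.00265). Cdhr2 was at 4.95 and 4.93 in control Sto SCs, against 7.75, 9.05 and 7.89 in control SI SCs (-3.29 ± 0.65, adjusted p = 0.0464). In the stomach cells Cdhr5 and Ush1c lay under the lowest array median, as did Myo7b at 3.86 and 4.00, against 10.63, 10.70 and 10.13 in control SI SCs. The myosins Myo15b and Myo1a differed by -3.94 ± 0.52 and -2.25 ± 0.27, Prap1 by -3.23 ± 0.27, and Baiap2l2, which binds membranes at microvilli, by -1.13 ± 0.23. The cadherin Cdh17 was the remaining member that was lower. Eps8l1, an actin regulator, went the other way, at 7.86 and 7.55 in control Sto SCs and 5.70, 6.12 and 5.83 in control SI SCs (1.82 ± 0.19, adjusted p = 0.00576).

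Digestive enzymes and uptake genes were lower in smaller numbers. Of 14 measured hydrolases, 3 were lower and 1 was higher, which became 1 and 0 without control Sto SCs 1, 2 and 0 without control Sto SCs 2 and 2 and 1 without control SI SCs 3. Alpi, intestinal alkaline phosphatase, was at 3.49 and 3.67 in control Sto SCs, against 9.49, 8.75 and 8.83 in control SI SCs (-5.44 ± 0.24, adjusted p = 0.000482), and its close paralog Akp3, outside the list, differed by -4.28 ± 0.26. Whether probes of one read the other was not tested. The meprin subunit Mep1b differed by -2.04 ± 0.38 (adjusted p = 0.0401). Sis, sucrase-isomaltase, was at 2.86 and 2.83 in control Sto SCs and at 4.60, 5.61 and 5.71 in control SI SCs, so this enzyme of mature enterocytes stood close to the array medians in the intestinal cells. Ace, angiotensin-converting enzyme, was higher, at 8.78 and 8.52 in control Sto SCs against 7.35, 7.21 and 6.36 in control SI SCs (1.68 ± 0.31, adjusted p = 0.0366). Of 26 measured transporters, 2 were lower and 1 was higher, but none was called without control Sto SCs 1, and 1 was lower without control Sto SCs 2, control SI SCs 1 or control SI SCs 3. Slc5a1, the sodium-glucose cotransporter, was at 4.27 and 4.62 in control Sto SCs, against 8.41, 10.17 and 8.50 in control SI SCs (-4.59 ± 0.51, adjusted p = 0.00664). The ferroxidase Heph, which passes iron out of enterocytes, differed by -4.03 ± 0.73. Slc10a2, the bile acid transporter of the ileum, was higher in control Sto SCs, at 6.06 and 5.67 against 3.48, 3.36 and 3.02 in control SI SCs (2.58 ± 0.29, adjusted p = 0.00665).

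Of 23 measured genes for uptake of lipids and vitamins, 6 were lower and none was higher, with a median of -0.53. Without control Sto SCs 1, control Sto SCs 2 or control SI SCs 3, 3, 2 and 4 were lower. Rbp2, the cellular retinol-binding protein of enterocytes, was at 4.34 and 4.02 in control Sto SCs, against 6.71, 7.31 and 6.65 in control SI SCs (-2.71 ± 0.23, adjusted p = 0.00264). Lrat, which esterifies the retinol that Rbp2 carries, was at 3.87 and 3.66 in control Sto SCs and at 6.34, 5.92 and 5.75 in control SI SCs (-2.23 ± 0.25). Fabp2, the intestinal fatty acid-binding protein, was at 3.14 and 3.45 in control Sto SCs and at 5.77, 6.85 and 6.77 in control SI SCs (-3.17 ± 0.34). The apolipoproteins Apoa1 and Apoc2 and the vitamin B12 receptor subunit Amn completed the called members, at -2.93 ± 0.49, -2.84 ± 0.34 and -1.75 ± 0.31. Clps, also of this list, went the other way by 3.49 and was not called. It was at 11.64 and 9.75 in control Sto SCs and at 6.67, 8.19 and 6.75 in control SI SCs. After quantile normalisation or median centring, 1 member of the list was called higher. Other retinoid genes were higher in control Sto SCs. Of 16 in the retinoid list, 3 were higher, and Rbp2 and Lrat were the 2 that were lower. Dhrs3, which reduces retinal, was at 10.90 and 10.62 in control Sto SCs and at 8.96, 9.35 and 8.60 in control SI SCs (1.79 ± 0.24, adjusted p = 0.0119). The retinol uptake receptor Stra6 was at 8.95 and 10.43 in control Sto SCs and at 7.05, 7.37 and 6.53 in control SI SCs (2.71 ± 0.46, adjusted p = 0.029), and Aldh1a1, which makes retinoic acid, was higher by 1.75 ± 0.33 (adjusted p = 0.0413). None of these 3 was called without control Sto SCs 2 or control SI SCs 1, or with a term for sex.

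Promoters of the called genes were searched for short sequence motifs bound by CDX, HNF4, GATA, FOXA and SOX factors. Each promoter ran from 250 bases before to 50 bases after a gene's start in RefSeq (GRCm38.p6), and 18141 promoters of 14739 of the tested genes could be read, 167 of them of genes called lower and 367 of genes called higher. The letters TTTATNG or, on the opposite strand, CNATAAA, which CDX proteins bind, were in 23 of the 167 promoters of genes lower in control Sto SCs (13.8%), in 35 of the 367 of genes higher (9.54%) and in 8.91% of all promoters. They resemble the TATA box that lies close before many starts, and the match cannot tell one from the other. The letters CAAAGTC or GACTTTG, part of the site of HNF4 factors, were in 18 promoters of genes called lower (10.8%), in 19 of genes called higher (5.18%) and in 4.12% of all. Of promoters of genes called lower, 4.19% held AGATAAG, which GATA factors bind, on either strand, as did 3.54% of those called higher and 2.51% of all. The FOXA letters TGTTTAC were in 4.79% of promoters of genes called lower, 1.36% of those called higher and 2.95% of all. For the SOX letters CATTGTT these shares were 4.79%, 2.45% and 2.78%. A promoter held both the CDX and the HNF4 letters in 5 of the 167 (2.99%), in 1 of the 367 (0.272%) and in 85 of all 18141 (0.469%). These 6 promoters are shown because they carry both, with both sets of letters in capitals and each sequence running in the direction of its gene.
Lgals2 (chr15:78855480-78855779, minus strand): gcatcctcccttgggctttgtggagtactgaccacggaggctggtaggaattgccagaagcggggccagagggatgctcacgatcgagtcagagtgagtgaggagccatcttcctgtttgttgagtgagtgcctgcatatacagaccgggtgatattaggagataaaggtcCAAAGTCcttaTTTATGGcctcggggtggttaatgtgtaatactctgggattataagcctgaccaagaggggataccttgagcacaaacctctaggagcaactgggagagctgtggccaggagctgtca
Alpi (chr1:87101557-87101856, minus strand): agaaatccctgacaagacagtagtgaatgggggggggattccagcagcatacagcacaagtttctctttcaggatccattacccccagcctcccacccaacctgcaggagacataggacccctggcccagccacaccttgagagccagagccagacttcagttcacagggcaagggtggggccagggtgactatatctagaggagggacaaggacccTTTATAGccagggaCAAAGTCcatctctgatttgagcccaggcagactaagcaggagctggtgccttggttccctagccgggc
Ms4a10 (chr19:10974651-10974950, minus strand): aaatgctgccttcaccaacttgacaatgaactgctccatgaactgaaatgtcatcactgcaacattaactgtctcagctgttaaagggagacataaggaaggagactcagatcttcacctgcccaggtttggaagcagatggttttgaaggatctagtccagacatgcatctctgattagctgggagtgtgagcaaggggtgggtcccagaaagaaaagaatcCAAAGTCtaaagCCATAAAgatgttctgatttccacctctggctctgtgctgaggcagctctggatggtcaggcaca
Trim31 (chr17:36897880-36898179, plus strand): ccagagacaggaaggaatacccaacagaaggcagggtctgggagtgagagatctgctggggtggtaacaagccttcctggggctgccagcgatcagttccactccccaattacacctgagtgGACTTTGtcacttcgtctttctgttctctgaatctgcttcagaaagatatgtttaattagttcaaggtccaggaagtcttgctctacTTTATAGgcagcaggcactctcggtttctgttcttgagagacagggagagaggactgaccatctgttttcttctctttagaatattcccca
Rbp2 (chr9:98490287-98490586, plus strand): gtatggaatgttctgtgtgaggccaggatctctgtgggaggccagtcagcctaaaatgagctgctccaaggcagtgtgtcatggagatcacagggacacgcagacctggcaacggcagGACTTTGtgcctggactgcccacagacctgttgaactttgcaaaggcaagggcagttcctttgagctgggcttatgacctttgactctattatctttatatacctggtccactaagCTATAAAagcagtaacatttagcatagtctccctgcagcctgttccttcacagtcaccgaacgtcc
Cym (chr3:107221683-107221982, minus strand): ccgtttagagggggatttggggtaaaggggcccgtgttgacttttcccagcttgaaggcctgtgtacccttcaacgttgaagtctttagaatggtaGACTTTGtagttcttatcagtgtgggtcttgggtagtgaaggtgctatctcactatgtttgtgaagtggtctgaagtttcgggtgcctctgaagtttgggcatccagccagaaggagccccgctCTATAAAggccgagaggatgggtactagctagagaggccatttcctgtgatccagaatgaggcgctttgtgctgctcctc
The first 5 belong to genes lower in control Sto SCs and the last to a gene higher there. In Lgals2, Alpi and Ms4a10 both sets of letters lie within 80 bases before the start, at -79 and -68 in Lgals2, -19 and -33 in Alpi and -27 and -15 in Ms4a10 (HNF4 letters first, counted to the leftmost base of each match with the start at 0). In Trim31, Rbp2 and Cym the HNF4 letters lie further off, at -128, -132 and -154, and the CDX letters at -41, -16 and -30. Ms4a10 was at 4.64 and 4.22 in control Sto SCs and at 8.49, 8.88 and 8.86 in control SI SCs (-4.32 ± 0.27). Trim31, a ubiquitin ligase that was named for its promoter, was at 3.35 and 3.58 in control Sto SCs and at 7.06, 6.43 and 6.64 in control SI SCs (-3.24 ± 0.21). Binding was not measured, and a match says only that the letters are there.

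Goblet cell genes were called in both directions. Of 17 measured, 4 were lower and 4 were higher, with a median of 0.21. Without either control Sto SC array 2 were lower and 1 was higher. The 4 that were lower encode secreted proteins. Tff3, the intestinal trefoil peptide, was at 4.73 and 4.34 in control Sto SCs, against 8.05, 8.95 and 8.26 in control SI SCs (-3.89 ± 0.28, adjusted p = 0.00158). Reg4, a secreted lectin, was at 3.11 and 3.30 in control Sto SCs, against 7.48, 8.99 and 7.84 in control SI SCs (-4.90 ± 0.41, adjusted p = 0.00264). Spink4, a protease inhibitor, and Zg16, a mucus lectin, differed by -2.81 ± 0.43 and -3.41 ± 0.68. The 4 that were higher were Spdef, given above, the mucous cell stress sensor Ern2 (1.60 ± 0.30), the membrane-bound factor Creb3l4 (1.82 ± 0.30) and Bcas1 (1.64 ± 0.16). Creb3l4 was at 10.51 and 10.02 in control Sto SCs and at 8.62, 7.88 and 8.83 in control SI SCs. Muc2, the gel-forming mucin of the intestine, was at 4.64 and 6.16 in control Sto SCs and at 7.63, 8.48 and 7.24 in control SI SCs, and was not called (adjusted p = 0.0654).

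Of 11 measured Paneth and antimicrobial genes, 2 were lower and none was higher. The alpha-defensin Defa24 was at 2.70 and 2.94 in control Sto SCs, against 7.32, 8.01 and 6.77 in control SI SCs (-4.55 ± 0.33, adjusted p = 0.00177), and the ribonuclease Ang4 differed by -1.92 ± 0.22. Defensins form a multigene family whose probes may be shared, which was not tested. Other Paneth genes depended on the array within control Sto SCs. Lyz1, Paneth cell lysozyme, was at 5.60 and 10.76 there and at 6.48, 9.55 and 8.18 in control SI SCs, and the phospholipase Pla2g2a was at 5.99 and 11.57 in control Sto SCs and at 12.76, 12.44 and 12.55 in control SI SCs. Mmp7, which processes defensins, was at 8.62 and 10.81 in control Sto SCs and at 11.66, 11.94 and 11.75 in control SI SCs. Control Sto SCs 1 was the lower array each time, and none of the 3 genes was called. The lists of hormone-secreting and tuft cell genes held 1 called gene each (3.57% and 7.14%, beside 1.94% of all genes called higher). Of 28 measured enteroendocrine genes only the carboxypeptidase Cpe was called, at 6.84 and 6.74 in control Sto SCs and 3.91, 4.58 and 4.37 in control SI SCs (2.51 ± 0.33, adjusted p = 0.0119), and of 14 measured tuft cell genes only Ltc4s was, higher by 1.21 ± 0.21. Without either control Sto SC array, or without control SI SCs 3, neither was called.

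Genes of gastric gland cells were higher in control Sto SCs. Of 14 measured pit cell genes, 8 were higher, beside 1.94% of all genes, and none was lower, with a list median of 2.17. The 8 became 5 without control Sto SCs 1, control Sto SCs 2 or control SI SCs 2, and 4 with a term for sex. Cldn18, the tight junction claudin of the stomach, was at 12.27 and 12 in control Sto SCs, against 5.49, 7.31 and 7.65 in control SI SCs (5.32 ± 0.64, adjusted p = 0.00874). Tff1, the pit cell trefoil peptide, was at 7.77 and 8.03 in control Sto SCs and at 5.63, 5.18 and 5.15 in control SI SCs (2.58 ± 0.38, adjusted p = 0.0176). Gkn1, a gastrokine of surface cells, was at 6.48 and 6.44 in control Sto SCs and at 4.77, 4.28 and 4.28 in control SI SCs (2.02 ± 0.19, adjusted p = 0.00358). Tff1 and Gkn1 thus stood above the array medians in control Sto SCs, while 2 other pit cell products, Muc5ac and Gkn2, were low in both groups. Muc5ac, the surface mucin, was at 4.60 and 4.45 in control Sto SCs and at 3.61, 3.52 and 3.67 in control SI SCs, under 2-fold apart (adjusted p = 0.0173), and Gkn2 was at 3.98 and 4.48 against 3.48, 3.38 and 3.42 in control SI SCs (adjusted p = 0.087). Ctse, an intracellular aspartic protease, was at 12.15 and 12.07 in control Sto SCs and at 10.40, 9.40 and 8.85 in control SI SCs (2.56 ± 0.40). Anxa10, Psca, Sult1c2 and Muc1 were the other members that were higher.

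Of 9 measured genes of mucous neck and pyloric gland cells, 4 were higher and none was lower, also with a median of 2.17. Without control Sto SCs 1, control Sto SCs 2 or control SI SCs 3, 2, 1 and 2 were higher. Bpifb1 and the chemokine Cxcl17, which are also in the list of defence proteins below, were called beside Tff2 and Muc6. Tff2, the trefoil peptide of these cells, was at 12.11 and 12.05 in control Sto SCs, against 6.13, 6.61 and 6.86 in control SI SCs (5.54 ± 0.22, adjusted p = 0.00042). Muc6, the gland mucin, was at 12.65 and 12.44 in control Sto SCs and at 11.05, 9.66 and 10.41 in control SI SCs (2.17 ± 0.37, adjusted p = 0.0294). Muc6 was thus among the brighter genes of the intestinal cells too, and so was Gkn3, at 12.75 and 12.31 in control Sto SCs and 11.85, 11.37 and 11.77 in control SI SCs (adjusted p = 0.0844). A4gnt, which caps the sugars of Muc6, was at 9.91 and 9.70 in control Sto SCs and at 8.07, 5.88 and 8.17 in control SI SCs, and was not called (adjusted p = 0.128).

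Some chief and parietal cell genes were higher in control Sto SCs. Of 8 measured chief cell genes, 4 were higher and none was lower. Cym, the milk-clotting protease chymosin, was at 12.10 and 12.18 in control Sto SCs, against 7.98, 7.80 and 8.60 in control SI SCs (4.02 ± 0.26, adjusted p = 0.00108). Cblif, gastric intrinsic factor, was at 10.72 and 10.22 in control Sto SCs, against 5.08, 5.37 and 4.79 in control SI SCs (5.39 ± 0.44, adjusted p = 0.00253). Rab3d, of secretory granules, was higher by 1.55 ± 0.18, beside Bhlha15. Pga5, pepsinogen A, stayed between 3.32 and 3.68 on all 5 arrays. Pgc, pepsinogen C, was at 9.70 and 9.84 in control Sto SCs and at 9.47, 6.70 and 9.73 in control SI SCs, and was not called (adjusted p = 0.752). Of 15 measured parietal cell genes, 3 were higher and none was lower, all ion transporters or channels. Only Slc9a4 was still called without either control Sto SC array. Slc9a4, a sodium-proton exchanger, was at 11.38 and 10.94 in control Sto SCs and at 8.42, 7.22 and 7.64 in control SI SCs (3.40 ± 0.34, adjusted p = 0.00501), and Slc26a9, a chloride transporter, was higher by 2.89 ± 0.52. The potassium channel Kcnj15 was at 9.75 and 9.96 in control Sto SCs and at 3.75, 4.29 and 3.64 in control SI SCs (5.96 ± 0.99, adjusted p = 0.0283). Atp4b, a subunit of the proton pump that defines parietal cells, was between 4.02 and 4.46 on the 5 arrays and was not called.

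Secreted defence proteins were mostly on the stomach side, with 7 of 23 measured genes higher and 1 lower. The 7 became 2 without control Sto SCs 1 or 2 or control SI SCs 1 or 3, 4 without control SI SCs 2, and 2 with a term for sex. Ltf, the iron-binding protein lactoferrin, was at 11.14 and 10.34 in control Sto SCs and at 5.27, 5.89 and 4.80 in control SI SCs (5.42 ± 0.76). Lcn2, which binds bacterial iron carriers, was at 10.59 and 10.99 in control Sto SCs and at 8.62, 8.11 and 7.16 in control SI SCs (2.83 ± 0.50, adjusted p = 0.0338). Duoxa2, the partner of the hydrogen peroxide-forming oxidase Duox2, and the neutrophil chemokine Cxcl5 were higher by 1.94 ± 0.37 and 1.95 ± 0.33. Ccl28, a chemokine of mucosal plasma cells, was the one that was lower, at 5.04 and 5.44 in control Sto SCs and 8.59, 8.77 and 8.05 in control SI SCs (-3.23 ± 0.24, adjusted p = 0.00188). The myeloid genes Cd14, a co-receptor for lipopolysaccharide, and Cd68, a lysosomal protein, were also higher. Cd14 was at 9.11 and 9.14 in control Sto SCs and at 7.36, 7.02 and 6.85 in control SI SCs (2.05 ± 0.18, adjusted p = 0.00304), and Cd68 at 10.26 and 10.36 in control Sto SCs and at 8.56, 8.70 and 8.51 in control SI SCs (1.72 ± 0.16, adjusted p = 0.00374). They were the 2 called of 13 immune markers, and the other 11, among them Ptprc, Itgam, Csf1r and Adgre1, were between 3.15 and 4.96 on all 5 arrays. Both stayed called whichever array was left out.

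Within several gene families one paralog was higher in control Sto SCs and another lower. Among 6 trefoil peptides and gastrokines, Tff1, Tff2 and Gkn1 were higher and Tff3 was lower. Of 11 measured mucins, Muc1 and Muc6 were higher while Muc13 and Muc3, both membrane mucins of enterocytes, were lower. Muc3 was at 3.41 and 3.52 in control Sto SCs and at 7.32, 7.84 and 5.48 in control SI SCs (-3.42 ± 0.62, adjusted p = 0.0362). Of 23 measured claudins, only Cldn18 was higher and only Cldn15, which forms sodium-permeable pores, was lower, at 4.53 and 4.73 in control Sto SCs and 9.03, 10.35 and 8.36 in control SI SCs (-4.62 ± 0.51, adjusted p = 0.00653). The other 21 claudins were not called, and the family's median difference was 0.00 to 2 decimals. Of 12 annexins, calcium-dependent membrane-binding proteins, Anxa10, Anxa8 and Anxa1 were higher and Anxa13, an intestinal member, was lower. Anxa10 was at 10.24 and 9.45 in control Sto SCs and at 6.33, 6.58 and 6.02 in control SI SCs (3.53 ± 0.36, adjusted p = 0.00522), and Anxa13 was at 3.59 and 3.61 in control Sto SCs and at 6.96, 8.52 and 6.89 in control SI SCs (-3.86 ± 0.50, adjusted p = 0.0115). Of 8 galectins, Lgals2 and Lgals1 were lower, and Lgals1 was at 9.10 and 9.35 in control Sto SCs and at 10.97, 11.38 and 10.59 in control SI SCs (-1.75 ± 0.26). Several of these calls were lost with an array left out. Cldn18, Anxa13, Lgals1 and Lgals2 were not called without either control Sto SC array, Cldn15 not without control Sto SCs 1, and Lgals2 not when any array was left out. Mucins had 1 call each way without either control Sto SC array, and trefoil peptides and gastrokines lost 1 higher call whichever array was left out. No keratin was called among 15, and Krt8 was between 12.30 and 12.65 on the 5 arrays. The plot by family shows most paralogs near 0 and a few far out on either side.

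**Figure D3:**
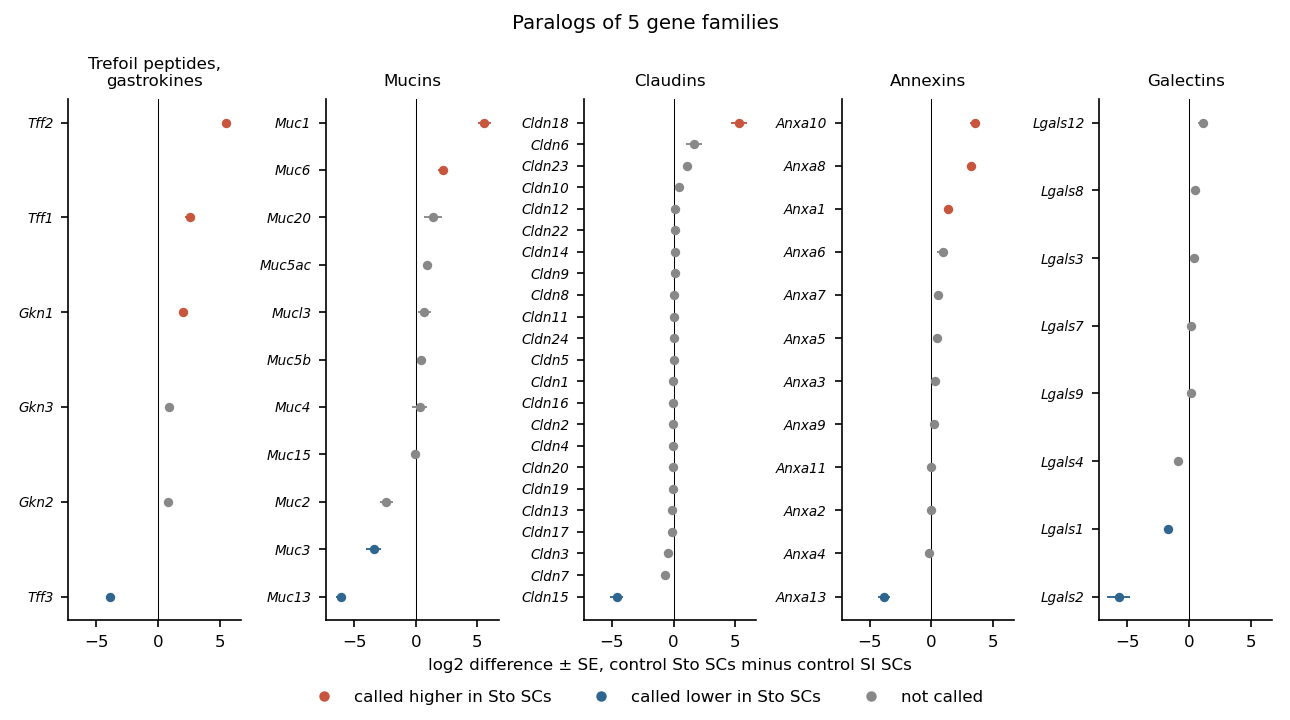
Log2 difference, Sto minus SI, in sorted control SCs (x axis, with SE bars from limma) for each measured paralog of 5 gene families, sorted by difference. Red marks genes called higher and blue genes called lower in control Sto SCs. In the claudins, Cldn18 at 5.32 and Cldn15 at -4.62 stand apart from 21 uncalled paralogs.

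Enzymes that process foreign compounds were among the genes that were lower. Of 38 measured, 9 were lower and 2 were higher, with a median of -0.41. The 9 became 4, 3 and 4 without control Sto SCs 1, control Sto SCs 2 or control SI SCs 1. Cyp2c55 was at 2.90 and 2.90 in control Sto SCs, against 5.36, 5.68 and 5.46 in control SI SCs (-2.60 ± 0.15, adjusted p = 0.00104), and its paralogs Cyp2c65 and Cyp2c66 differed by -3.50 ± 0.31 and -2.75 ± 0.30. Cyp2c genes are alike in sequence, and cross-reading between their probes was not tested. The carboxylesterase Ces2e was at 4.47 and 4.18 in control Sto SCs and at 8.41, 8.09 and 8.67 in control SI SCs (-4.06 ± 0.24, adjusted p = 0.00105). The efflux pumps Abcb1a and Abcg2 were also lower, by a log2 difference of -1.83 ± 0.25 and -1.42 ± 0.26, as were Aldh1b1, Adh6a and Cyp2d26. The glutathione transferase Gsta4 and the sulfotransferase Sult1c2 were higher by 1.14 ± 0.17 and 2.32 ± 0.36.

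Genes of the secretory pathway had few calls. Of 16 measured genes for folding in the endoplasmic reticulum, the co-chaperones Dnajb9 and Dnajc3 were higher and none was lower, with a list median of 0.62. Neither was called without control Sto SCs 1 or any control SI SC array. Dnajb9 was at 10.83 and 10.06 in control Sto SCs and at 8.80, 8.55 and 8.59 in control SI SCs (1.79 ± 0.30, adjusted p = 0.0273). Of 35 measured enzymes that build mucin sugars, 2.86% were higher and 5.71% lower, beside 1.94% and 0.914% of all genes. The sialyltransferase St3gal5 was higher by 1.97 ± 0.37, while St6galnac4 and B4galnt3 differed by -1.54 ± 0.19 and -1.44 ± 0.28. None of these was called without control Sto SCs 1. Of 23 measured adhesion G protein-coupled receptors, 2 were higher and 1 was lower. Adgrg6 was at 7.44 and 8.21 in control Sto SCs and at 4.70, 5.04 and 4.60 in control SI SCs (3.04 ± 0.25, adjusted p = 0.00253), and Adgrg2 at 7.50 and 7.38 in control Sto SCs and at 4.70, 4.11 and 3.81 in control SI SCs (3.23 ± 0.36, adjusted p = 0.00645), the second not called without control Sto SCs 1. Adgrg7 was at 3.60 and 5.16 in control Sto SCs, against 11.34, 10.92 and 10.89 in control SI SCs (-6.67 ± 1.32, adjusted p = 0.0475), and it was not called when any 1 of the 5 arrays was left out. Of 24 measured integrins and laminins, only Lamb2 was called (4.17%, beside 1.94% of all genes higher). It was higher by 1.52 ± 0.30 and was not called when any array was left out.

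Genes of the cell cycle and of the signalling pathways that the medium feeds were not called. None of 29 measured genes for DNA replication and mitosis was called in either direction, although every one was lower on average in control Sto SCs, by differences of -0.96 to -0.39 with a median of -0.53. Bub1, a mitotic checkpoint kinase, was at 8.76 and 8.86 in control Sto SCs and at 9.78, 9.75 and 9.55 in control SI SCs, a difference of -0.89 ± 0.14 that passed the test (adjusted p = 0.0219) but not the 2-fold limit. Top2a overlapped, at 9.59 and 9.90 in control Sto SCs and 10.24, 10.72 and 9.89 in control SI SCs (adjusted p = 0.389). There were also no calls among 18 Wnt target genes (median 0.02), 16 Notch pathway genes, 20 Fgf receptors and response genes, 15 EGF ligands and receptors, 9 hedgehog pathway genes, 16 genes of cholesterol synthesis, 21 immediate early genes, 20 interferon genes or 12 housekeeping genes. The bars by list show gastric gland lists to the right, brush border and uptake lists to the left, and goblet genes on both sides.

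**Figure D4:**
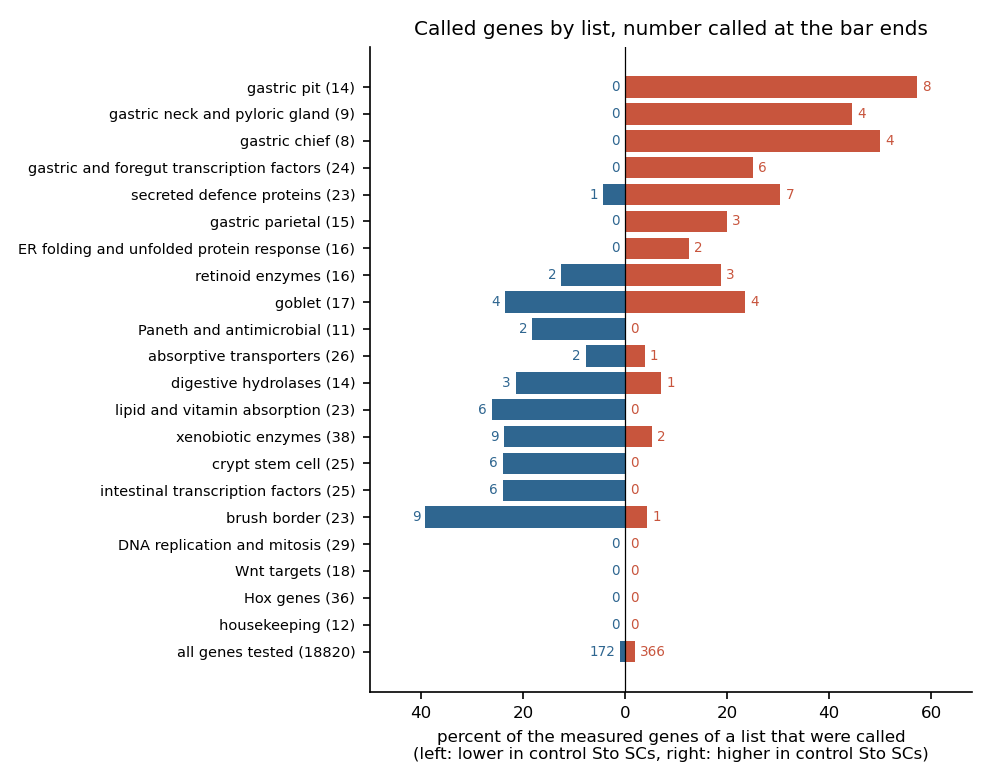
Percent of the measured genes of a list that were called higher (red, to the right) or lower (blue, to the left) in control Sto SCs, with the number of called genes at the bar ends and the number of measured genes in parentheses. The pit cell list has 8 of 14 higher and the brush border list 9 of 23 lower, against 366 higher and 172 lower of all 18820 genes.

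Large differences were also found outside these lists. Tm4sf20, a tetraspan membrane protein, was at 3.43 and 3.59 in control Sto SCs, against 8.50, 8.58 and 8.73 in control SI SCs (-5.10 ± 0.31). Gucy2c, the guanylate cyclase receptor for guanylin, was at 3.95 and 3.38 in control Sto SCs, against 8.28, 9.11 and 7.90 in control SI SCs (-4.77 ± 0.41, adjusted p = 0.00272). Far2, which reduces fatty acids to alcohols, was at 4.27 and 4.05 in control Sto SCs, against 9.16, 9.60 and 8.99 in control SI SCs (-5.09 ± 0.29, adjusted p = 0.00104). Clca3b, Clrn3, Glod5, the ceramide synthase Cers4 and the gluconeogenic enzyme Fbp1 differed by -4.03 to -4.98. On the stomach side, Capn6, a calpain without protease activity, was at 10.44 and 10.46 in control Sto SCs, against 4.92, 5.01 and 4.46 in control SI SCs (5.65 ± 0.20, adjusted p = 0.000355). The dystrophin-associated proteins Sntb1 and Sgce were higher by 5.19 ± 0.94 and 4.42 ± 0.60. Sulf1, an extracellular sulfatase that trims heparan sulfate, was at 8.22 and 8.60 in control Sto SCs, against 4.08, 4.17 and 3.84 in control SI SCs (4.38 ± 0.25, adjusted p = 0.00104). The chitinase Chit1, the metalloprotease Adam28, the proton channel Otop3 and the ephrin Efna5 were higher by 4.32 ± 0.32, 4.37 ± 0.34, 4.01 ± 0.36 and 4.00 ± 0.37. Gabrp was higher in both control Sto SC arrays but by unequal amounts, at 6.61 and 9.46, against 4.13, 4.22 and 3.70 in control SI SCs.

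One of 292 measured miRNA genes was called. Mir215, named because it was the only one, was at 3.47 and 3.45 in control Sto SCs and at 4.90, 4.59 and 4.26 in control SI SCs (-1.12 ± 0.21, adjusted p = 0.0374). All 5 levels lay near or under the array medians, and the probe set reads the gene and not the mature miRNA. Mature sequences are shown for Mir215 and for the genes beside it and of its seed family, from RefSeq (GRCm38.p6), with the seed (bases 2 to 8) in capitals.
mmu-miR-215-5p: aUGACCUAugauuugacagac
mmu-miR-192-5p: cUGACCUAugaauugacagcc
mmu-miR-194-5p: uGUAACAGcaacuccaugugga
The first 2 share the seed and come from different chromosomes, Mir215 from chr1:185313610-185313630 and Mir192 from chr19:6264857-6264877, both on the plus strand. The third is made from both places, by Mir194-1 at chr1:185313325-185313346 and Mir194-2 at chr19:6264658-6264679. Mir194-1, next to Mir215, was at 4.75 and 4.18 in control Sto SCs and at 5.55, 5.27 and 5.18 in control SI SCs and was not called (-0.87, adjusted p = 0.0892). Neither were Mir192 (-0.49) and Mir194-2 (-0.24). A RefSeq entry was found for 253 of the 292 miRNA genes, whose median difference over all 292 was -0.04.

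The 2 control Sto SC arrays were not alike in every gene. They were at least 4-fold apart on 82 genes (0.436%), with 74 higher on control Sto SCs 2 and 8 higher on control Sto SCs 1. Pairs of control SI SC arrays were that far apart on 24 to 108 genes. The homeodomain genes Irx5, Irx3 and Irx2 were at 3.78, 4.95 and 4.77 on control Sto SCs 1 and at 8.21, 7.74 and 8.03 on control Sto SCs 2. Isl1, a LIM homeodomain factor, was at 3.82 and 7.26 in the same order, and the lipoxygenase Alox15 at 5.08 and 9.47. On control Sto SCs 1, these genes were close to control SI SCs, where Irx5 was at 3.82, 3.87 and 3.89 and Isl1 at 3.58, 3.61 and 3.96. None of them was called, and 2 of the 82 genes were.

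Whole organoids offered the same comparison of origin on arrays that share no sample with the sorted cells. In SI medium, which lacks the 3 added factors, 2 arrays of Sto organoids stood against 3 of SI organoids. The array labelled SI organoids SI med 1 went against its label, with Cdx2 at 5.52 and Sox2 at 9.21, against 9.92 and 9.67 for Cdx2 and 3.69 and 3.85 for Sox2 on the other 2 SI organoid arrays. With it, 266 genes were called (1.41%, with 0.526% higher and 0.887% lower in Sto organoids), and without it 2609 (13.9%). With all 3 arrays, 302 of the 366 genes called higher in control Sto SCs were also higher in Sto organoids, as were 55.6% of all genes. Of the 172 called lower, 155 were also lower, as were 44.4% of all genes. The organoid test called 10 of the 366 and 6 of the 172 the same way. Without that array, 334 of the 366 (91.3%) were also higher in Sto organoids, as were 57.9% of all genes, and 165 of the 172 (95.9%) were also lower, as were 42.1% of all genes. Called the same way were then 195 (53.3%) and 135 (78.5%), beside 7.57% and 6.29% of all genes, and these made up 13.7% and 11.4% of the genes called in organoids. In Sto medium there was 1 array of each origin, so no test, and the Sto array carried male transcripts and the SI array female ones. There, 342 of the 366 and 168 of the 172 had the same sign as in the sorted cells, beside 52.1% and 46.5% of all genes. At least 2-fold apart the same way were 192 and 139, beside 3.26% and 3.29% of all genes.

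A test of the difference between both contrasts, SC minus organoid, called 159 genes (0.845%), 0.478% higher and 0.367% lower. Without SI organoids SI med 1 it called 854 (4.54%, 2.88% higher and 1.66% lower). Some genes differed alike in both. Tff2 was higher by 5.54 in control Sto SCs and by 5.56 in Sto organoids without that array, and Cym by 4.02 and 3.96. Olfm4 differed by -3.85 in SCs and by -7.08 in organoids. Without SI organoids SI med 1, opposite calls were made for 7 genes, and with all 3 SI organoid arrays for 0. Ace, Bhlha15, Fam20c, Lcn2, Ramp1 and Tent5c were higher in control Sto SCs and lower in Sto organoids, and Myl7 was lower in SCs and higher in organoids. Lcn2 was at 4.21 and 3.98 in Sto organoids and at 8.65 and 7.18 in SI organoids SI med 2 and 3, so it was near the floor in Sto organoids. Intrinsic factor showed a similar contrast. Cblif was at 4.73 and 4.73 in Sto organoids and at 4.36 and 4.43 in SI organoids 2 and 3, although it was 41.9-fold higher in the sorted Sto cells, and Serpina3n, higher by 5.90 in SCs, differed by 0.18 in organoids. Muc5ac and Gkn2, of the pit cell list, did the reverse. Muc5ac was at 12.28 and 12.03 and Gkn2 at 12.40 and 12.45 in Sto organoids, while the 3 SI organoid arrays had 3.88, 3.47 and 3.69 for Muc5ac and 4.55, 3.68 and 3.60 for Gkn2. In the sorted Sto cells these genes had stood close to the floor. Sorted cells and these organoids differ at least in medium and in the sort. The study describes organoids compared by microarray in both media as grown from glands and crypts, while the sorted cells came from single-cell clones. The study also uses SI medium as the medium that lets Sto organoids differentiate. Unsorted organoids in Sto medium had 1 array of each origin, so which of these accounts for a contrast was not tested.

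**Figure D5:**
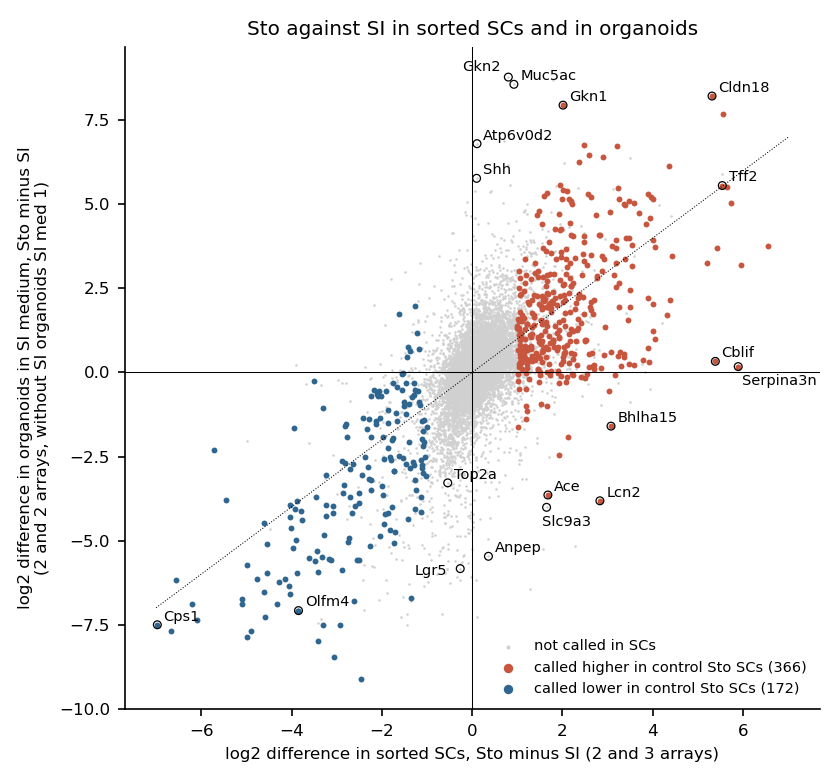
Log2 difference Sto minus SI in sorted SCs (x axis, 2 and 3 arrays) against that in organoids in SI medium (y axis, 2 and 2 arrays, without SI organoids SI med 1), 1 point per gene, with the dotted line marking equal differences. Of the genes called in SCs, 334 of 366 higher ones (red) lie above 0 and 165 of 172 lower ones (blue) lie below it, while Muc5ac and Gkn2 are high in organoids only and Cblif in SCs only.

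The 152 called genes followed through every setting were picked from the 538, mostly for large differences or as list members. Without control SI SCs 1, 91 of them stayed called, beside 184 of all 366 higher and 77 of all 172 lower calls. Which calls rest on single arrays was counted over the same 152 genes only. Of these, 49 stayed called whichever of the 5 control SC arrays was left out, 23 of them higher and 26 lower. The 23 hold Tff2, Muc1, Gkn1, Cym, Cblif, Bhlha15, Anxa10, Slc9a4, Psca, Cd14, Cd68 and Sulf1, and the 26 hold Cdhr5, Ush1c, Myo7b, Prap1, Alpi, Akp3, Rbp2, Reg4, Tff3, Defa24, Smoc2, Muc13 and Gucy2c. Of the 12 transcription factors called in both lists only Bhlha15 was among the 49, and of the 6 stem cell genes only Smoc2 was.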

How the data were processed

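RNA of 14 samples was hybridised to 1 array each. Per the labels, total RNA was isolated with Trizol and RNeasy, and the authors summarised the scans with RMA-sketch in Affymetrix Power Tools and deposited log2 values for 35556 probe sets, which were used as deposited. All 14 value columns matched a sample, and 0 did not. On control SI SCs 3 and SI organoids SI med 3, every value was the log2 of some signal with 1 decimal (100%, against 0.380% to 0.492% elsewhere), and their upper quartiles were 7.50 and 7.57, against 7.79 to 7.90 on the others. Whether these 2 arrays were normalised with the rest is not given in the sources used here. RMA keeps silent genes above 0, so folds of dim genes are compressed.

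Probe sets were named through the platform annotation (23099 with a gene, 21218 of them with 1 symbol and 1881 with several), and 21185 symbols were updated through the Entrez ID with RefSeq genes (GRCm38.p6). Those with several genes, and the 12457 without one, were not used. For 1386 genes several probe sets were left, and the brightest on average across the series stood for the gene, which gave 18820 genes. Precision is limited by the number of arrays.

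Control Sto SCs (n = 2) and control SI SCs (n = 3) were compared with limma 3.58.1 (lmFit and eBayes, R 4.3.3, 2-sided) on the 7 SC arrays, so that Cdx2null SI SCs (n = 2) entered the spread only, with Benjamini-Hochberg adjustment over all genes and the methods' 2-fold limit. Organoids were fitted on the 7 organoid arrays, and the difference between both contrasts on all 14. The genes named were taken from Cdx2, Lgr5, the 25 called genes with the largest difference each way, called list members, whole gene families, the 5 genes each way with the largest difference between SCs and organoids, and further genes chosen after their values were seen (Trim31, Mir215, Meis1, Irx2, Alox15, the genes called in opposite directions in organoids, and those of the closing paragraphs). The groups, members, tests and 48 gene lists were chosen with earlier results of these data known. Lists were counted and not tested. Alternatives were quantile normalisation, median centring, a filter on genes under the median probe set (4.90), averaged probe sets, an intensity trend, 5 or 14 arrays, terms for replicate number and sex, the methods' t-test, other folds and leaving out each array, and, after seeing the data, female arrays only, leaving out both rounded arrays, and list medians under these settings. The fit was tested on simulated data. Python 3.11.15 was used for the tables.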

Additional observations from a re-analysis of the deposited data

Results flagged for a closer look

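The difference between origins was itself different in sorted SCs and in organoids in SI medium for 159 genes (0.845% of 18820), by a limma test of the SC difference minus the organoid difference on all 14 arrays. Without the array SI organoids SI med 1, which went against its label, 854 genes (4.54%) passed. A positive value below means that the gene stood higher in control Sto SCs relative to control SI SCs than in Sto organoids relative to SI organoids. All values that follow include that array. No group held the 4 arrays needed to look for single outlying arrays.

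Values are given only for genes named in the text, so other list members among the 159 are not covered. The stem cell and cycling genes among the named ones had positive values. Lgr5 had 5.37 (adjusted p = 0.00082). Lgr5 was at 4.20 and 4.32 in Sto organoids and at 9.49, 9.90 and 10.28 in SI organoids. In Sto medium, unsorted Sto organoids had 9.29 and unsorted SI organoids 9.95, on 1 array each. The reason for the contrast was not tested. Ascl2 had 3.60, Axin2 3.25, Cdca7 2.59 and the topoisomerase Top2a 2.86. Top2a was at 6.22 and 6.83 in Sto organoids and at 10.17, 9.98 and 9.63 in SI organoids. Cblif had 5.65 (adjusted p = 0.019) and Bhlha15 4.52 (adjusted p = 0.0094), and both were near the floor in Sto organoids. The sodium-proton exchanger Slc9a3 had 6.56 and the aminopeptidase Anpep 5.42. Slc9a3 was at 11.50 and 11.23 in control Sto SCs and at 10.17, 9.36 and 9.62 in control SI SCs, but at 3.73 and 4.40 in Sto organoids. Ramp1, a receptor partner, had 2.58.

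The 3 pit cell genes among the named ones had negative values. Gkn2 had -7.68 (adjusted p = 4.1e-05), Muc5ac -7.55 (adjusted p = 5.5e-07) and Gkn1 -5.20. The proton pump subunit Atp6v0d2 had -6.0, Shh, the hedgehog ligand of the gastric surface, -5.62 (adjusted p = 4.6e-06), Teddm3 -5.41 and the myosin light chain Myl7 -3.01. Shh was at 9.59 and 9.37 in Sto organoids and at 3.89, 3.75 and 3.65 in SI organoids, and at 3.60 and 3.96 in control Sto SCs and 3.67, 3.79 and 3.57 in control SI SCs.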

How the results depend on the processing

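Of sorted SCs, 538 genes were called by origin. This number was 29 with all 14 arrays in the fit, 262 with a term for sex (110 higher, 152 lower), 117 on female arrays only (chosen after seeing the data), 267 at a 4-fold limit, and 828 by the methods' t-test at an unadjusted p under 0.05 but 0 after Benjamini-Hochberg adjustment (2032 genes had an unadjusted p under 0.05). Leaving out 1 array gave 160 to 445, and the count moved by over 1.5 times without control Sto SCs 1, control Sto SCs 2, control SI SCs 1 and control SI SCs 3. The other settings gave 500 to 802. The share of higher calls was 373 of 610 after quantile normalisation and 558 of 802 after centring, against 366 of 538.

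Called in organoids were 266 genes, 561 after quantile normalisation and 407 after centring, 0 to 2609 with 1 array left out (0 without any but SI organoids SI med 1). The difference between SCs and organoids gave 159 genes, 324 after quantile normalisation, 56 without both rounded arrays (chosen after seeing the data), and 19 to 854 with 1 array left out, the lowest without control Sto SCs 1. It also moved by over 1.5 times without control Sto SCs 2 (34), control SI SCs 1 (39), control SI SCs 3 (90), Sto organoids SI med 1 (45) and SI organoids SI med 2 (95).

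Replicate numbers occur in several groups. Whether arrays that share a number belong together is not stated, and the main fit does not pair them. Deviations of arrays with the same number correlated at 0.176 and 0.404 between the control SC groups, at 0.377 between Cdx2null SI SCs and control Sto SCs, at 0.072 and 0.273 between Cdx2null and control SI SCs, and at -0.058 and -0.057 for organoids. With the number as a block, 500 genes were called between SCs (300 higher, 200 lower; 37 of 152 genes followed by name, Cdh17, Kcnj15 and Adgrg7 among them, were lost) and 0 between organoids (2343 at an unadjusted p under 0.05).

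None of the 152 called genes followed by name turned its sign, and 45 (female arrays only) to 152 (centring) stayed called, apart from 7 with all 14 arrays. Signs turned only among genes that were not called. For called genes the arrays of both groups do not overlap, so leaving out an array or adding a term for sex could not turn a sign. With 1 array left out, Irx5 lay between -0.076 and 4.35, Shh between -0.0782 and 0.277, Alox15 between -0.42 and 3.96, Lyz1 between -2.47 and 2.69 and Epcam between -0.00362 and 0.209, each lowest without control Sto SCs 2 and highest without control Sto SCs 1. Lyz1 was also -0.69 without control SI SCs 1, and Epcam -0.00222 without control SI SCs 3. With a term for sex, and on female arrays only, Shh was -0.0142, Teddm3 -0.0207 and Lyz1 -1.37. With the replicate block Epcam was -0.00222. The cause was not tested in any of these.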

Other observations

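Some called genes outside every list belong to pathways not described above. They were picked after their values were seen, so they are descriptions. Nlrp6, Pycard and Casp1, which can form an inflammasome, were lower in control Sto SCs. Nlrp6, the sensor, was at 6.43 and 7.76 in control Sto SCs and at 9.39, 9.64 and 9.02 in control SI SCs (-2.26, adjusted p = 0.0372). The adaptor Pycard was at 5.91 and 5.90 in control Sto SCs and at 7.51, 7.64 and 7.64 in control SI SCs (-1.69, adjusted p = 0.0123), and the protease Casp1 was at 2.60 and 3.54 in control Sto SCs and at 6.61, 6.74 and 6.32 in control SI SCs (-3.49, adjusted p = 0.0461). None of the 3 stayed called whichever array was left out. Ccl25, the chemokine that draws lymphocytes to the small intestine, was at 6.38 and 6.23 in control Sto SCs and at 9.06, 8.59 and 8.80 in control SI SCs (-2.51, adjusted p = 0.00188).

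Myb, a factor of crypt progenitors, was at 5.56 and 5.88 in control Sto SCs and at 9.64, 9.82 and 9.02 in control SI SCs (-3.78, adjusted p = 0.00188). Hopx, a homeodomain protein of slowly cycling crypt cells, was at 6.97 and 7.25 in control Sto SCs and at 8.91, 8.92 and 9.08 in control SI SCs (-1.86, adjusted p = 0.0105). Vipr1, a receptor for vasoactive intestinal peptide, was lower as well, with a difference of -3.96. On the stomach side, Osmr, the oncostatin M receptor, was at 9.28 and 8.91 in control Sto SCs and at 5.64, 6.06 and 5.18 in control SI SCs (3.47, adjusted p = 0.00264), and the growth factor Fgf9 was at 7.68 and 7.75 in control Sto SCs and at 5.27, 5.72 and 5.14 in control SI SCs (2.34, adjusted p = 0.00664). Of the genes in these paragraphs, Ccl25, Myb, Vipr1 and Osmr stayed called whichever array was left out, while Hopx and Fgf9 did not.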
